A study of Mus musculus with 10 samples.

Results

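Genes of epithelial cell contacts were followed through 10 bulk RNA libraries of mammary tumor cells and fibroblasts: Epcam, the tight junction genes Cldn1, Cldn3, Cldn4, Cldn7, Ocln and Tjp1, and the desmosome genes Dsp, Dsg2 and Pkp3. These 10 were chosen by name among the 55486 genes in the count table, and each matched 1 gene identifier. In tumor cells, 6 of the 10 genes were lower in co-culture with fibroblasts than in tumor cells grown alone (Cldn1, Cldn3, Cldn4, Cldn7, Ocln and Dsp). A further 1 was higher (Tjp1), and Epcam, Dsg2 and Pkp3 did not pass the test. Over all genes tested, 11.5% were lower and 10.8% higher. In fibroblasts grown alone, Epcam, Cldn4, Cldn7 and Dsg2 had no reads, whereas after co-culture most of the genes were read in fibroblast libraries at a few percent of the tumor level.

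Tight junctions seal neighbouring epithelial cells near their apical side. Claudins form the paracellular strands, occludin (Ocln) joins them, and the scaffold ZO-1 (Tjp1) ties the strands to actin. Desmosomes tie the keratin filaments of neighbouring cells together: desmogleins such as Dsg2 span the membrane, plakophilins such as Pkp3 lie beneath it, and desmoplakin (Dsp) binds the filaments. EpCAM is an epithelial surface glycoprotein that binds claudin-7 and is widely used to recognise epithelial tumor cells.

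The libraries came from 5 gels of collagen and BME (basement membrane extract) after 7 days of culture. Normal fibroblasts (NFs) were from mTmG mice aged 8 weeks (mammary gland), whose cells carry membrane Tomato until Cre switches them to GFP. Tomato+ CD26- NFs and GFP+ CD26+ NFs, the latter switched with an adenoviral Cre, shared a gel either alone (gel 1) or with tumor cells, and the 3 cell types of a gel were separated again by colour before sequencing. Virus exposure and CD26 status therefore cannot be told apart in any comparison of the NF subsets. The tumor cells were the lines 13-MCB-17 (alone in gel 2, with NFs in gel 4) and 10-SJK-221 (alone in gel 3, with NFs in gel 5), derived from WapCre;Cdh1F/F mammary tumors with a further floxed allele, a model of invasive lobular carcinoma in which Cre acts in mammary epithelium. Each line was grown once alone and once with NFs. The p-values for tumor cells therefore rest on how the change differed between the 2 lines, with a spread shared across genes. NFs alone were 2 libraries of a single gel, so culture and that gel cannot be told apart. No p-value covers the spread between gels of NFs alone. The total count of a library lay between 14142334 and 18408940, and a gene with 0 reads could have had up to 0.163 to 0.212 CPM (counts scaled to a library total of 1e6, from 3 reads).

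By their sums, markers of the labelled cells were at the levels their labels give. Summed over 10 epithelial markers, the tumor libraries held 3530 to 4949 CPM and NFs alone 4.35 and 6.04 CPM. Summed over 10 fibroblast markers, NFs alone held 71829 and 78356 CPM and tumor cells alone 38.9 and 72.0 CPM, most of it Pdgfra (35.6 and 67.7 CPM). Single epithelial markers did not all follow. Elf5 had no reads in any library, and Muc1 lay at 1.97 to 3.65 CPM in tumor libraries and 3.23 CPM in NFs alone. Prom1 had at most 0.0566 CPM in tumor cells and 1.44 to 2.70 CPM in co-cultured NFs. Markers of the other cell type were higher in co-cultured libraries: the epithelial sum was 116 to 309 CPM in co-cultured NFs, and the fibroblast sum was 180 and 110 CPM in co-cultured tumor cells. Cdh1, the floxed E-cadherin gene and itself an epithelial junction gene, went from 239 to 144 CPM between 13-MCB-17 alone and with NFs, and from 269 to 139.9 CPM in 10-SJK-221. The table gives 1 count per gene, so these reads cannot be assigned to floxed or remaining exons and do not check the deletion.

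In tumor cells grown alone the genes spanned a wide range of levels. On a length-scaled scale (TPM, CPM corrected for exon length), the only scale on which levels of different genes are compared here, the means over both lines were 805 for Cldn4, 703 for Epcam, 297 for Dsp, 211 for Cldn3, 90.8 for Tjp1, 77.8 for Pkp3, 77.5 for Cldn7, 58.4 for Cldn1, 29.5 for Ocln and 2.70 for Dsg2. Cldn4 (920 and 690 TPM) and Epcam (717 and 688 TPM) overlapped. Tjp1, Pkp3 and Cldn7 overlapped with each other, as did Pkp3, Cldn7 and Cldn1, whereas Tjp1 (75.5 and 106 TPM) lay above Cldn1 (74.1 and 42.8 TPM). Ocln (27.0 and 32.1 TPM) and Dsg2 (2.99 and 2.42 TPM) lay below every other member in both lines.

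The starts of these genes are shown for Epcam, for the neighbours Cldn4 and Cldn3, and for Tjp1, because Cldn4 and Cldn3 fell in co-culture, Tjp1 rose, and Epcam was lower in both lines without passing the test. Cldn4 (ENSMUSG00000047501, chr5:134945119-134946934, minus strand) and Cldn3 (ENSMUSG00000070473, chr5:134986214-134987472, plus strand) are 39.3 kb apart in GRCm38. Each line gives the 250 bases before the start in RefSeq, 5′ to 3′ on the strand of the gene (build GRCm38.p6), with CACCTG or its reverse complement CAGGTG in capitals. This E-box is a sequence that repressors of the Snail and Zeb families can bind. The Epcam stretch is chr17:87635729-87635978 (plus strand), that of Cldn4 chr5:134946935-134947184 (minus strand), that of Cldn3 chr5:134985964-134986213 (plus strand) and that of Tjp1 chr7:65371245-65371494 (minus strand). The first 3 overlap no annotated gene, and that of Tjp1 lies in an intron of its longer transcripts.
Epcam: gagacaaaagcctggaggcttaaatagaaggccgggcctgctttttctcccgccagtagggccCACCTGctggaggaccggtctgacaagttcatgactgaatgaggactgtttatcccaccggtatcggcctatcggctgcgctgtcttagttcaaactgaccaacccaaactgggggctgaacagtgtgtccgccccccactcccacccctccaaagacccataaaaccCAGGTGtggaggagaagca
Cldn4: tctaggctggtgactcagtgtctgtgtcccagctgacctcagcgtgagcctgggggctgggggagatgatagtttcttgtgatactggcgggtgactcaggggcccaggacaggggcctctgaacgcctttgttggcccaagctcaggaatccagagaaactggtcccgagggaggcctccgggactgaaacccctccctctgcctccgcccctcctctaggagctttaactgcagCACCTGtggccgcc
Cldn3: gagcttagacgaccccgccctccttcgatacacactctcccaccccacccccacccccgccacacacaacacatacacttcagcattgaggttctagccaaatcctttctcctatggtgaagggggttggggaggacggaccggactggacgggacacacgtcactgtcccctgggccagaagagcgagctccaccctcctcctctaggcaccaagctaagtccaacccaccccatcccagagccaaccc
Tjp1: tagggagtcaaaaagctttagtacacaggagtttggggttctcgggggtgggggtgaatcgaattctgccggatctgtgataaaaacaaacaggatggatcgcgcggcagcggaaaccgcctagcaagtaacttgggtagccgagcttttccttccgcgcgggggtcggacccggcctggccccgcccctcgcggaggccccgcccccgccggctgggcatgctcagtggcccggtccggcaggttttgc

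The E-box stands 187 and 19 bases before the start of Epcam and 14 bases before that of Cldn4, and is not in the stretches of Cldn3 or Tjp1. Of the 8 members with a promoter in the table (Dsg2 and Pkp3 had none), 4 held it in these 250 bases (Cldn4, Cldn7, Epcam and Ocln), against 19.4% of 27025 genes. In windows that add the first 50 bases after the start, 6 of 8 members held it (Cldn3 and Dsp as well), against 22.6% of genes. The other 6 motifs were searched on both strands of the 250 bases. The GC box GGGCGG was in all 8 members (35.4% of genes), GTGGGG, which KLF factors can bind, in 6 (28.1%), the ETS core AGGAAG in 1 (32.3%) and the AP-1 motif TGANTCA in 1 (7.82%). The grainyhead motifs AACCGGTT (0.137% of genes) and AACCNGTT (2.00%, which includes every AACCGGTT) were in none. A match describes these letters only, and no factor binding was measured.

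**Figure D1:**
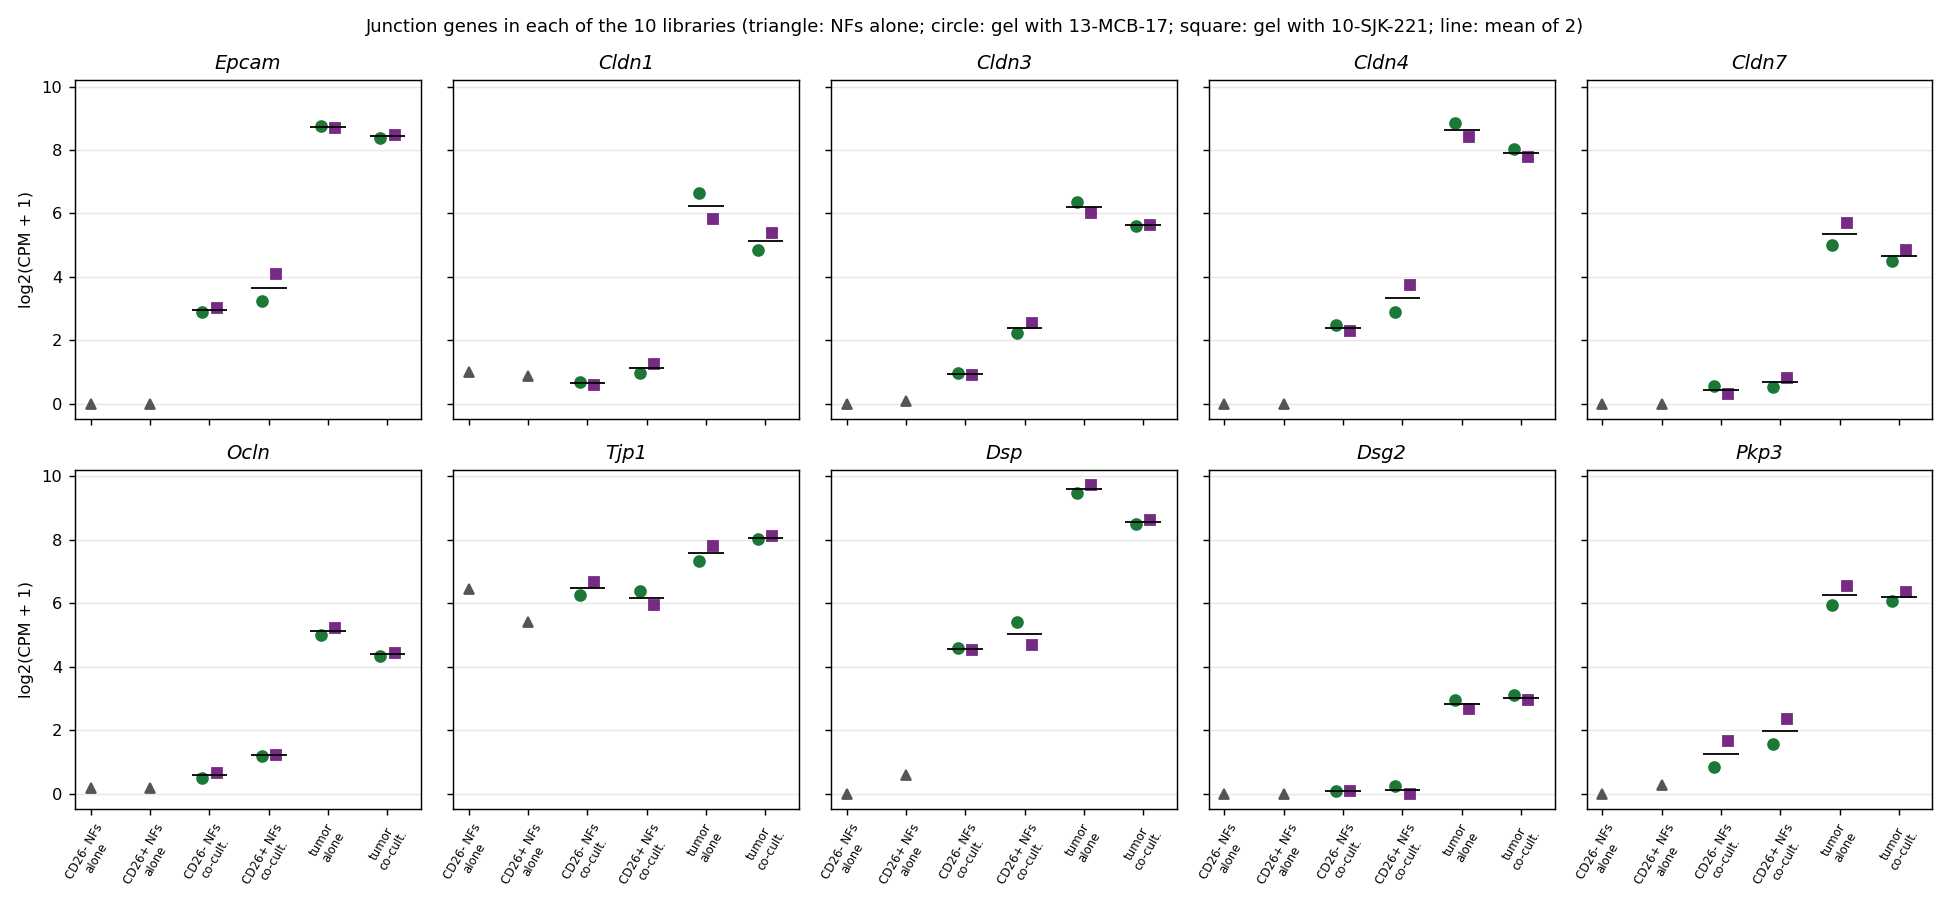
Level of each gene as log2(CPM + 1) in each library, grouped on the horizontal axis by cell type and culture; triangles are NFs alone, circles the gels with line 13-MCB-17, squares those with line 10-SJK-221, and the line is the mean of 2 libraries. All 10 genes are higher in every tumor library than in any NF library, and Tjp1 is the member with a high level in NFs alone (87.5 and 41.8 CPM).

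The first comparison asked how tumor cells of the same line differed with and without NFs in the gel. Of the 10 genes, 6 were lower and 1 was higher in co-culture at an adjusted p under 0.05 (edgeR quasi-likelihood test over 13197 genes, with line as a term), while 11.5% of all genes tested were lower and 10.8% higher. The median log2 fold change was -0.67 over the 10 genes and 0.01 over all genes.

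Epcam had 432 CPM in 13-MCB-17 alone and 335 CPM with NFs, and 409 CPM in 10-SJK-221 alone and 358 CPM with NFs. Both lines were lower with NFs, but the fitted log2 fold change of -0.30 ± 0.11 (SE) did not pass the threshold (adjusted p = 0.0927), with a 95% interval from -0.57 to -0.04.

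Of the 4 claudins, all were lower with NFs in both lines. Cldn4, a sealing claudin of many epithelia, had 459 and 339 CPM in 13-MCB-17 and 10-SJK-221 alone and 259.5 and 219 CPM with NFs. The 2 groups did not overlap, and Cldn4 fell by 0.75 on the log2 scale (SE 0.11, adjusted p = 0.00252). Cldn3, a sealing claudin too, had 81.5 and 63.6 CPM alone and 47.3 and 49.3 CPM with NFs, and its log2 fold change was -0.60 (SE 0.13, adjusted p = 0.0108). Cldn7, the claudin that binds EpCAM, had 31.5 and 50.6 CPM alone and 21.6 and 27.8 CPM with NFs. It fell by 0.73 on the log2 scale (SE 0.13, adjusted p = 0.00567), without overlap between the groups.

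Cldn1, a claudin needed for barrier function in skin, differed most between the lines in its change. It had 98.4 CPM in 13-MCB-17 alone and 28.1 CPM with NFs, but 56.1 CPM in 10-SJK-221 alone and 40.6 CPM with NFs. The fitted log2 fold change was -1.16 (SE 0.26, adjusted p = 0.0153). Within a line it was -1.85 in 13-MCB-17 and -0.47 in 10-SJK-221, and whether the lines differ was not tested, since each has 1 library per culture.

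Ocln and Tjp1 moved in opposite directions. Ocln had 31.3 and 36.6 CPM alone and 19.5 and 20.5 CPM with NFs, and fell by 0.79 on the log2 scale (SE 0.13, adjusted p = 0.00438). Tjp1 had 162 and 224 CPM in 13-MCB-17 and 10-SJK-221 alone, and 258 and 279 CPM with NFs. Tjp1 was higher in co-culture in both lines, without overlap, by a log2 fold change of 0.47 (SE 0.12, adjusted p = 0.0237). On the TPM scale Tjp1 stood below Dsp and Cldn3 in tumor cells alone, and next to both with NFs (means of 128 for Tjp1, 147 for Dsp and 143 for Cldn3).

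The desmosome genes did not move together. Dsp had 717 and 847 CPM alone and 364 and 393 CPM with NFs, the most similar change of any of the called members in the 2 lines (log2 fold changes of -1.02 and -1.11). It fell by 1.07 on the log2 scale (SE 0.12, adjusted p = 0.000595). Dsg2 had 6.79 and 5.41 CPM alone and 7.58 and 6.73 CPM with NFs, and its log2 fold change of 0.21 had a 95% interval from -0.28 to 0.69 (adjusted p = 0.536). Pkp3 had 61.2 and 92.0 CPM alone and 66.0 and 81.6 CPM with NFs, with a log2 fold change of -0.06 and a 95% interval from -0.30 to 0.19 (adjusted p = 0.746). The groups overlapped for both Dsg2 and Pkp3.

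**Figure D2:**
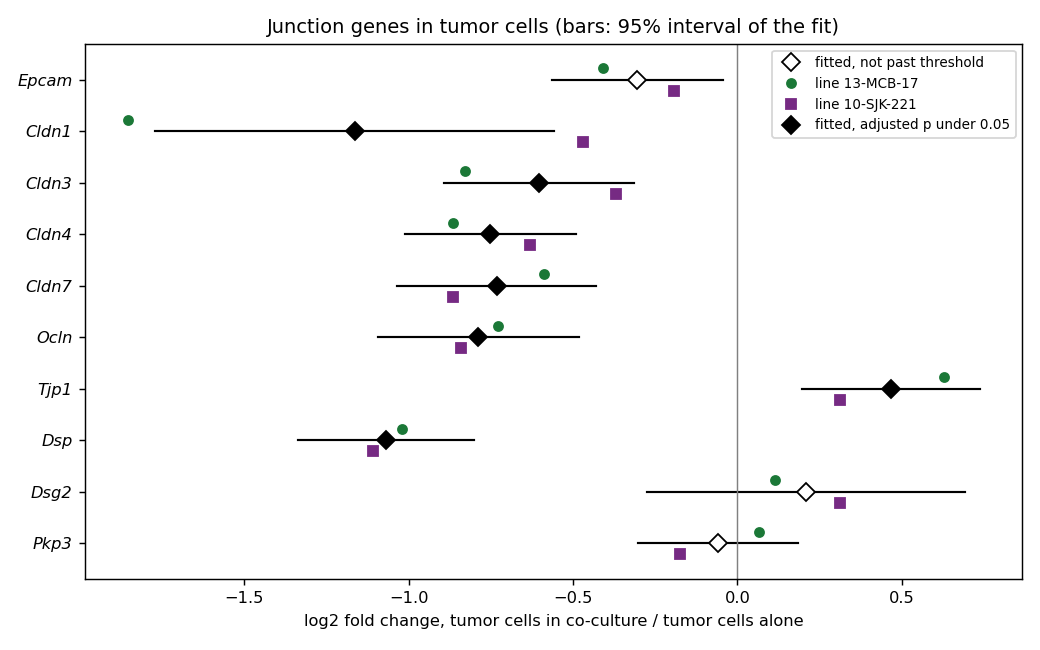
Log2 fold change of each gene between tumor cells in co-culture and alone; diamonds are the fitted values with their 95% intervals (filled, adjusted p under 0.05), and circles and squares the values within lines 13-MCB-17 and 10-SJK-221. The filled diamonds of 6 genes lie left of 0, from -0.60 (Cldn3) to -1.16 (Cldn1), and that of Tjp1 lies right of it at 0.47.

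These calls rested on the 2 pairs of gels. With any 1 tumor library left out, the value is that of the remaining line, 1 library against 1, and its spread is borrowed from the other groups in the fit over all libraries, on the assumption that tumor cells vary like them. On that basis no member passed except Cldn1 without the 10-SJK-221 library of gel 3 or gel 5 (adjusted p = 0.000842 and 0.000897, edgeR). The log2 fold change of Cldn1 was -0.47 without gel 2 or gel 4, that of Cldn3 was -0.37 there, and Dsp stayed between -1.02 and -1.11. A fit over all 10 libraries called 4 members (Cldn1, Cldn7, Ocln and Dsp), and the adjusted p was 0.0548 for Cldn3, 0.0531 for Cldn4 and 0.157 for Tjp1. DESeq2 did not call Cldn1 (adjusted p = 0.307). No member passed an added limit of 2 on the absolute log2 fold change. With the line left out of the fit, edgeR called 0 genes and 0 members, with 2207 genes and 7 members at an unadjusted p under 0.05.

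Fibroblast markers moved with these changes in the tumor libraries. Of the 7 tested, 6 were higher in co-culture, and their part in the results above was not tested. Over 39 genes with no reads in tumor cells alone and at least 50 CPM in each NF library, the median level in co-cultured tumor cells was 0.0445% (gel 4) and 0.0380% (gel 5) of that in the NFs of the gel, and Col1a1 stood highest of 4 collagen and matrix genes looked at, at 0.802% and 0.241%. Tjp1 in those NFs was at 60.2 to 100.4 CPM, below its level in every tumor library. In bulk libraries, fewer cells with a transcript and less of it in each cell cannot be told apart.

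Other genes of the same structures are given from lists chosen by name. Of all genes tested in tumor cells, 11.5% were lower and 10.8% higher with NFs. Of 34 other tight junction genes, 22 were tested in tumor cells, of which 7 were lower and 1 was higher with NFs. The lowest were Marveld3 (log2 fold change -1.99, adjusted p = 0.0112) and Marveld2 (-1.29, adjusted p = 0.0015), relatives of occludin, and the higher one was the scaffold gene Mpdz (0.87, adjusted p = 0.0031). Of 12 other desmosome genes, 8 were tested and 5 were lower, with Ppl (periplakin, -2.32, adjusted p = 2.67e-05) and Dsg3 (a desmoglein, -1.96, adjusted p = 0.00497) the lowest. Of 5 partners and proteases of EpCAM, 4 were lower, among them the protease Prss8 (-0.87, adjusted p = 0.00321) and its inhibitor Spint2 (-0.37, adjusted p = 0.0387).

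Transcription factors and splicing regulators of the epithelial state were listed as well. Of 10 epithelial regulators tested, 6 were lower with NFs, against 11.5% of all genes. The 6 included Ovol1 (-1.80, adjusted p = 3.86e-05) and Elf3 (-1.07, adjusted p = 0.000282). Of 6 repressors of epithelial genes, 5 were tested and 1 was higher, Snai1 (0.49, adjusted p = 0.00906), against 10.8% of all genes. Epithelial markers were divided: of 8 tested, 3 were lower, among them Rab25 (-1.96, adjusted p = 0.000293) and Cdh1 (-0.86, adjusted p = 0.00104), and the median log2 fold change was -0.02. Of 6 myoepithelial markers tested, 2 were lower (Krt5, -4.28, and Krt17, -1.11), and of 5 immune and endothelial markers 2 were lower, among them Cd68 (-1.69, adjusted p = 0.000147).

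The 2 tumor lines were also compared with each other, in the same fit. Of the 10 members, 1 differed, against 14.5% of genes in either direction: Cldn4 was lower in 10-SJK-221 (log2 fold change -0.42, SE 0.11, adjusted p = 0.0439). Cldn4 lost this call in every alternative except the one without a filter on low counts. Pkp3 (0.37, adjusted p = 0.0524) and Cldn7 (0.45, adjusted p = 0.0541) came next and were higher in 10-SJK-221 in both cultures. For the other 7 members the log2 fold change lay between -0.32 and 0.21.

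In NFs grown alone, 4 members had no reads in either library (Epcam, Cldn4, Cldn7 and Dsg2). Cldn3 had 0 and 1 read, Ocln 2 and 2, Pkp3 0 and 3, and Dsp 0 and 7 in CD26- and CD26+ NFs. Cldn1 was read at a low level, 16 and 12 reads (0.994 and 0.842 CPM). Tjp1, which many cell types besides epithelium use at their contacts, reached 87.5 CPM in the CD26- library and 41.8 CPM in the CD26+ one.

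The next comparison asked which of the genes were read in NFs after co-culture. Of the 8 members that passed the filter on low counts, 6 were higher in co-cultured NFs than in NFs alone (Epcam, Cldn3, Cldn4, Ocln, Dsp and Pkp3), against 25.9% of the 15013 genes tested. A member that is near 0 in one group passed the filter only through the other, so the count over these 8, and the adjusted p given below for Cldn3, Ocln, Dsp and Pkp3, are descriptions, and none is given for a gene without reads in NFs alone. Cldn7 and Dsg2 did not pass it.

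For Epcam, the CD26- libraries of gels 4 and 5 held 6.42 and 7.14 CPM, and the CD26+ libraries 8.42 and 15.9 CPM. Set against the 3 reads that 0 reads allow over both NF libraries alone, Epcam was at least 93.2-fold higher after co-culture (586 reads over 4 libraries). Cldn4 was read at 4.54 and 3.91 CPM in the CD26- libraries and at 6.49 and 12.4 CPM in the CD26+ libraries, at least 66.8-fold higher than in NFs alone by pooled reads. All 4 co-cultured libraries lay above the allowance of both NF libraries alone.

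Dsp was barely read in NFs alone. After co-culture the CD26- libraries held 23.0 and 22.2 CPM and the CD26+ libraries 41.2 and 24.5 CPM, against 0 and 0.491 CPM alone. Its log2 fold change was 6.91 (SE 0.51, adjusted p = 6.53e-06). Pkp3 was read at 0.788 and 2.19 CPM in the CD26- libraries and at 1.99 and 4.10 CPM in the CD26+ libraries, 22.3-fold the level alone with a 95% counting interval from 7.47 to 109 (adjusted p = 0.00274). Every read of Dsp and Pkp3 in NFs alone lay in the CD26+ library, so without it neither has a finite fold.

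Cldn3 lay at 0.970 and 0.863 CPM in the CD26- libraries, and higher in the CD26+ libraries, at 3.66 and 4.88 CPM. The ratio to NFs alone was 74.9, with a counting interval from 13.3 to 2979 because NFs alone held 1 read (adjusted p = 0.000164). Ocln lay at 0.424 and 0.576 CPM in the CD26- libraries and at 1.28 and 1.34 CPM in the CD26+ libraries, against 0.124 and 0.140 CPM alone, a ratio of 6.68 with an interval from 2.47 to 25.4 (adjusted p = 0.0108). Without the CD26+ library of NFs alone, which leaves the change of CD26- NFs only, Ocln did not pass. With 1 library left out, its log2 fold change lay between 1.98 and 3.18. Cldn7, with 4 to 11 reads in each co-cultured NF library and none alone, was at least 4.77-fold higher by pooled reads and was not tested. Dsg2 had 1, 3, 1 and 0 reads after co-culture, so no fold is given.

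Cldn1 and Tjp1, the 2 members with more than 10 reads in both libraries of NFs alone, did not pass the test. Cldn1 lay at 0.606 and 0.518 CPM in the CD26- libraries after co-culture and at 0.964 and 1.41 CPM in the CD26+ libraries, a log2 fold change of -0.12 with a 95% interval from -1.28 to 1.03 (adjusted p = 0.858). For Tjp1 the CD26- libraries held 76.5 and 100.4 CPM after co-culture, and the CD26+ libraries 83.6 and 60.2 CPM. Its log2 fold change was 0.43 (interval -0.05 to 0.91, adjusted p = 0.124), and both groups overlapped. Without the CD26- library of NFs alone, which leaves the change of CD26+ NFs only, the log2 fold change of Tjp1 was 0.80. Without the CD26- library of gel 4 it was 0.55, and in the fit over all 10 libraries 0.45 (edgeR, adjusted p = 0.0486).

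Reads of tumor genes in co-cultured NF libraries were then put on a common scale, as a share of the CPM in the tumor cells of the same gel. As a reference, 19 genes had no reads in NFs alone and at least 50 CPM in each tumor library, Epcam and Cldn4 among them. Their median share was 1.92% and 2.26% in CD26- NFs of gels 4 and 5, and 3.12% and 4.72% in CD26+ NFs. Intervals on shares cover counting error only.

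Epcam reached 1.91% (95% interval 1.57 to 2.32) and 1.99% (1.66 to 2.38) of the tumor level in CD26- NFs, and at 2.51% (2.09 to 2.98) and 4.45% (3.87 to 5.08) in CD26+ NFs. In no library was Epcam above the upper quartile of the 19 genes. Cldn4 stood at 1.75% and 1.79% in CD26- NFs and at 2.50% and 5.68% in CD26+ NFs, above the upper quartile in 1 library. Pkp3 (1.19% to 5.03%), Cldn1 (1.28% to 3.49%), Cldn7 (0.827% to 2.79%) and Dsg2 (0% to 2.54%) lay at or below the upper quartile in all 4 libraries. For Cldn1 this share includes reads that NFs alone have too, and with those subtracted it stood at -1.38% and -1.17% in CD26- NFs and at 0.432% and 1.41% in CD26+ NFs.

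Dsp stood above most of that reference. It was read at 6.30% (5.67 to 6.99) and 5.64% (5.07 to 6.25) of the tumor level in CD26- NFs and at 11.3% (10.4 to 12.3) and 6.24% (5.59 to 6.95) in CD26+ NFs, above the upper quartile in all 4 libraries. All 19 reference genes lay below it in both CD26- libraries, and 94.7% and 89.5% of them in CD26+ NFs of gels 4 and 5. Against a wider set of 45 genes with at most 0.5 CPM in NFs alone, which holds Dsp itself, 5, 6, 5 and 10 genes lay above Dsp. With tumor cells of the same line grown alone as the denominator, where Dsp is higher, its median share was 3.05% rather than 6.27%. The reference genes are not given on that denominator, so whether Dsp stands above them there cannot be read from 3.05%. Tjp1 stood at 21.6% to 36.0% of the tumor level, which includes reads that NFs alone have too. With the level of the same subset alone subtracted, Tjp1 stood at -4.27% and 4.64% in CD26- NFs of gels 4 and 5 and at 16.2% and 6.63% in CD26+ NFs, below NFs alone in 1 library.

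Cldn3 and Ocln had higher shares in the CD26+ libraries, and the direct test of the subsets, given next, was passed by Cldn3 and not by Ocln (adjusted p = 0.340). Cldn3 stood at 2.05% (1.17 to 3.35) and 1.75% (0.976 to 2.91) in CD26- NFs, near the reference median in gel 4 and below the lower quartile in gel 5, and at 7.74% (5.81 to 10.1) and 9.90% (7.63 to 12.7) in CD26+ NFs, above the 95th percentile of the 19 genes in both. Ocln stood at 2.18% and 2.81% in CD26- NFs and at 6.60% and 6.56% in CD26+ NFs, with wide intervals (3.98 to 10.4 and 3.90 to 10.4) from 20 and 19 reads. In CD26- NFs its intervals (0.870 to 4.54 and 1.34 to 5.23) spanned the reference medians. The share of Ocln includes reads that NFs alone have too. With those subtracted, Ocln fell below the reference median in both CD26- libraries and stayed above it in both CD26+ libraries. Whether the reads of these genes in co-cultured NFs came from tumor cells or RNA left in the NF sort, or from NFs themselves, was not tested.

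**Figure D3:**
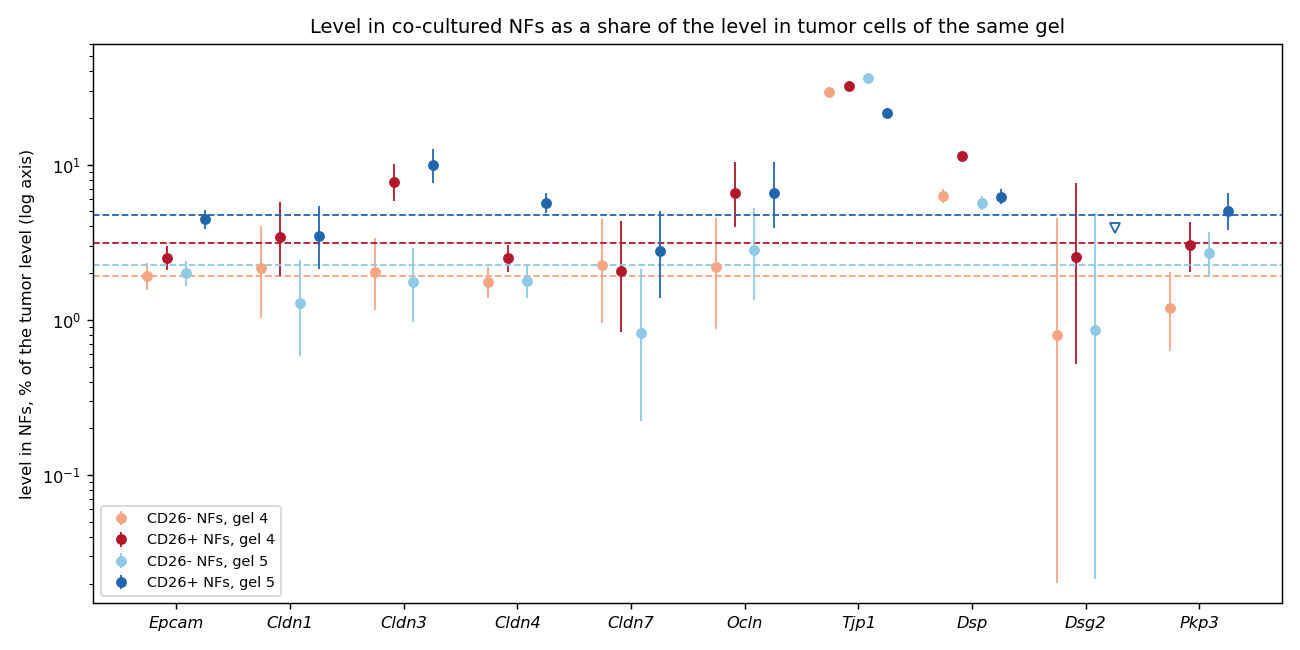
Level in each co-cultured NF library as a percent of the level in tumor cells of the same gel, on a log axis; bars are 95% counting intervals, dashed lines the median of 19 reference genes in the library of the same colour, and the open triangle the upper limit for Dsg2 where no read was found. The shares shown include reads that NFs alone have too. On that basis Tjp1 (21.6% to 36.0%), Dsp (5.64% to 11.3%) and Ocln (2.18% to 6.60%) lie above the dashed lines in all 4 libraries. Cldn3 does so in the CD26+ libraries at 7.74% and 9.90%. With the level in NFs alone subtracted, Ocln falls below the median in both CD26- libraries, and Tjp1 in the CD26- library of gel 4.

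The NF subsets were compared directly in co-culture. Of the 9 members tested, 1 differed, against 6.01% of 16231 genes in either direction: Cldn3 was higher in CD26+ NFs, by a log2 fold change of 2.04 (SE 0.45, adjusted p = 0.0160, edgeR). Its 4 values did not overlap between the subsets. The call was lost without the CD26+ library of gel 4 (adjusted p = 0.0597) or of gel 5 (adjusted p = 0.115), and with DESeq2 (adjusted p = 0.0759). With the gel as a block, 4 members differed, against 16.7% of 14410 genes: Cldn3 (2.04, adjusted p = 2.07e-05), Cldn4 (0.94, adjusted p = 0.00316) and Epcam (0.63, adjusted p = 0.0362) were higher in CD26+ NFs, and Tjp1 was lower (-0.47, adjusted p = 0.0451).

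The reference genes were, at the median, read more in the CD26+ libraries too. Within gel 4 the CPM ratio of CD26+ to CD26- NFs had a median of 1.59 over the 19 reference genes (range 0.768 to 3.87), and within gel 5 a median of 2.00 (1.02 to 4.39). Cldn3 had ratios of 3.78 (interval 2.14 to 7.05) and 5.65 (3.20 to 10.6), above 18 and all 19 of the reference genes. Epcam had 1.31 and 2.23, above 6 and 11 of them. Ocln (3.03) and Pkp3 (2.53) shared the rank of Cldn3 in gel 4, above 18 of the reference genes, and lay above 14 (2.33) and 9 (1.88) in gel 5. Cldn4 (3.18) and Cldn7 (3.38) lay above 16 and 17 in gel 5, but above 6 (1.43) and 3 (0.928) in gel 4. Cldn1 had 1.59 and 2.73, Dsp 1.80 in gel 4 and 1.11 in gel 5, and Tjp1 1.09 and 0.600. Of 8 epithelial markers tested, 2 were higher in CD26+ NFs, Spint2 (log2 fold change 1.14, adjusted p = 0.0182) and Krt7 (1.01, adjusted p = 0.0483). Of all genes tested, 3.48% were higher and 2.53% lower in CD26+ NFs. Of 10 fibroblast markers tested, none was higher and 5 were lower in CD26+ NFs, among them Fbn1 (-1.20, adjusted p = 0.00612) and Pdgfrb (-0.996, adjusted p = 0.0293), and the sum over the 10 was 39663 and 44012 CPM in the CD26- libraries and 24335 and 30399 CPM in the CD26+ libraries. Of 6 myoepithelial markers tested 1 was lower, Acta2 (-1.54, adjusted p = 0.00603), and of 6 immune and endothelial markers 1 was higher, Kdr (2.02, adjusted p = 0.0189). The part of these markers in the result for Cldn3 was not tested.

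**Figure D4:**
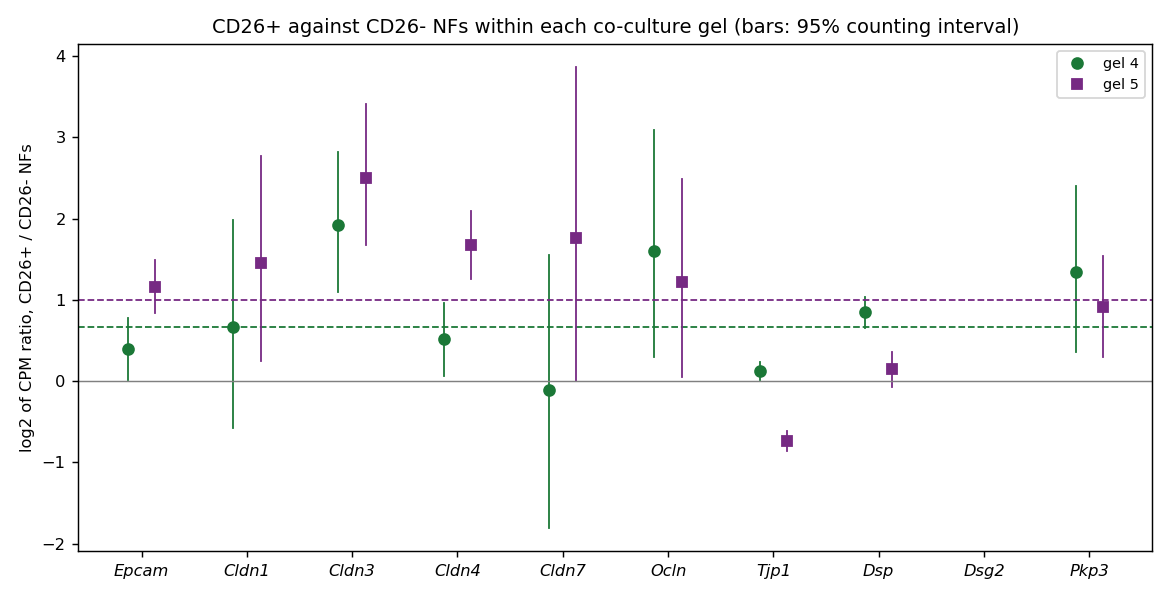
Log2 ratio of CPM in CD26+ to CD26- NFs within gel 4 (circles) and gel 5 (squares), with 95% counting intervals; dashed lines are the medians of 19 reference genes in each gel (ratios of 1.59 and 2.00). Cldn3 (ratios of 3.78 and 5.65) and Ocln (3.03 and 2.33) lie above both dashed lines, Tjp1 lies below them at 1.09 and 0.600, and Dsg2 had too few reads for a ratio.

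Whether co-culture changed a member differently in the 2 subsets was poorly covered, since each subset alone is 1 library. Only Cldn1, Ocln and Tjp1 had reads in both NF libraries alone. For these the interaction of subset and culture was 0.73 on the log2 scale for Tjp1 (SE 0.36, adjusted p = 0.670, edgeR), 1.28 for Cldn1 (SE 1.04, adjusted p = 0.898) and 1.17 for Ocln (SE 1.78, adjusted p = 0.976), and none passed. Cldn3, Dsp and Pkp3 had reads only in the CD26+ library alone (1, 7 and 3). Their change in CD26- NFs has no finite value, so the test cannot decide for them. For Epcam, Cldn4 and Cldn7, without reads in NFs alone, the test carries no information, and Dsg2 was not tested.

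The related lists were also followed in NFs. As for the members, a gene without reads in NFs alone passed the filter only through the co-cultured libraries, so that these counts, and the adjusted p of genes with few reads there, are descriptions. Of 21 other tight junction genes tested, 10 were higher and 6 lower in co-cultured NFs, against 25.9% and 22.9% of all genes. Cgn, which codes for the junction plaque protein cingulin, had no reads in NFs alone and 18 to 37 in each co-cultured library. Lsr was higher (log2 fold change 4.11, adjusted p = 0.00119), while Cldn15 (-1.72, adjusted p = 0.00191) and Jam3 (-0.88, adjusted p = 0.00354) were lower. Of 7 other desmosome genes tested, 5 were higher, among them Perp (3.28, adjusted p = 0.00134) and Pkp1, which NFs alone did not read. Ppl was lower (-1.73, adjusted p = 0.00784).

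Shares of the tumor level differed between these genes as well. Lsr stood at 2.04% to 4.59% and Perp at 2.10% to 4.66%, near the range of Epcam. Pkp1 stood at 4.23% and 3.92% in the CD26- libraries, above Epcam and above the upper quartile of the reference genes there, and at 3.67% and 3.98% in the CD26+ libraries. Genes that NFs alone also read covered a wide range, from Patj (3.13% to 4.01%) and Cxadr (4.83% to 11.8%) to Cldn12 (34.6% to 43.3%) and Pard3 (65.0% to 91.4%). Of 3 EpCAM partners and proteases tested in NFs, all were higher after co-culture, against 25.9% of all genes. Spint2 had a log2 fold change of 4.27 (adjusted p = 4.88e-05) and St14 one of 2.42 (adjusted p = 0.0208).

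Of all genes tested in NFs, 25.9% were higher and 22.9% lower after co-culture. Of 7 epithelial regulators tested in NFs, 3 were higher, including Esrp1, which had no reads in NFs alone and 65 to 118 in each co-cultured library. Of 8 epithelial markers 7 were higher, including Krt8 and Krt18. Among 6 repressors of epithelial genes, which fibroblasts normally express, Twist2 was higher (log2 fold change 1.76, adjusted p = 5.87e-05), and 3 were lower, among them Snai2 (-2.52, adjusted p = 1.68e-06) and Snai1 (-0.95, adjusted p = 0.000553). Of 10 fibroblast markers, 2 were higher (Thy1 and Dcn) and 5 lower, among them Col3a1 (-1.95) and Col1a2 (-0.99). Of 6 myoepithelial markers tested, 1 was higher and 3 were lower, and of 5 immune and endothelial markers 3 were higher, among them Pecam1 (3.35, adjusted p = 0.00011) and Cdh5 (3.54, adjusted p = 0.00192).

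The genes whose pattern most resembled the mean of the 10 members over the 10 libraries were Cdcp1, Cdh1, Rps6ka1, Msln and Lad1, with Pearson's r between 0.998 and 0.999 on log2(CPM + 1) among 3601 genes with at least 50 CPM in each tumor library. This is a description over libraries of which 4 are tumor cells and 6 NFs, so the difference between cell types carries it. Of the members, Cldn4 had the highest r with the mean of the other 9 (0.993) and Tjp1 the lowest (0.888).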

How the data were processed

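Messenger RNA of 10 libraries (TruSeq stranded mRNA kit, Illumina sequencing) was measured, and the deposited values are raw read counts per gene, whole numbers that the authors left unnormalized in 1 table of all samples. Per the submitters' processing notes, reads were aligned with HISAT2 2.2.1 to GRCm38. The counter, whether it used strand, and its annotation are not given in the sources used here, so reads shared with overlapping genes cannot be separated (3.18% of Cldn3, 5.17% of Dsp and 3.99% of Dsg2 exon bases overlap another gene). Of the table's identifiers, 99.38% were in GENCODE M21, which gave exon lengths for TPM.

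CPM used the sum of counts per library. Tests used the quasi-likelihood test of edgeR 4.0.16 (R 4.3.3) with TMM scaling, filterByExpr and Benjamini-Hochberg adjustment over all genes tested, and called an adjusted p under 0.05. SEs were taken from the test statistic. Tumor cells were fitted with line and culture on 4 libraries, NFs with subset and culture on 6, and the subsets in co-culture with 4 NF groups on the same 6. The filter grouped libraries by culture, and by subset and culture for the subsets. Grouping by subset and culture in the NF fit too was tried first and is kept as an alternative. Shares and ratios of reads carry exact 95% intervals, and floors use 3 reads; both cover counting error only. Gel numbers in the labels mark a shared gel. The deviations of same-gel NF libraries correlated at 0.13, and those of tumor libraries of the same line at 0.711. Pairs of libraries of a group differed beyond sampling noise (chi-square per degree of freedom 18.5 to 61.1). Only the tumor fit was run on simulated counts, and the outcome is not given here.

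All 10 members are named in each library. From each further list, at most the 2 highest and 2 lowest changes past the threshold with a mean of at least 1 CPM are named, and 5 genes most like the members' mean. Cdh1 is counted with the epithelial markers and not with the regulators, and Spint2 stands on the lists of markers and of EpCAM partners. The members and lists were chosen with earlier results of these data known. Alternatives were RLE scaling, other filters, DESeq2 1.42.0, a fit over all 10 libraries, left-out libraries, the line term left out, the gel as a block, and other denominators for the shares. The filter by subset and culture in the NF fit was made an alternative after the data were seen, and the wider set of reference genes was added then. Promoters are from RefSeq (GRCm38.p6), and 8 of 10 members matched. A further targeted gene is not reported here.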

Additional observations from a re-analysis of the deposited data

Results flagged for a closer look

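Pkp3, which did not pass the test in tumor cells, had values of opposite sign in the 2 tumor lines. The log2 ratio of CPM in co-culture to alone was 0.11 in 13-MCB-17 and -0.174 in 10-SJK-221. The counting interval of the fold was 0.993 to 1.17 in 13-MCB-17 and 0.824 to 0.954 in 10-SJK-221, and the difference between the lines was not tested, since each line has 1 library per culture.

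Cldn1, which did not pass the test in NFs, had differences of opposite sign in the 2 NF subsets. In CPM, co-culture minus alone was -0.388 (gel 4) and -0.476 (gel 5) for the CD26- libraries, and 0.121 (gel 4) and 0.572 (gel 5) for the CD26+ libraries. The interaction of subset and culture did not pass (log2 difference 1.28, adjusted p = 0.898, edgeR), at 16 and 12 reads in NFs alone and 9 to 20 in each co-cultured library.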

How the results depend on the processing

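In tumor cells, 2942 genes and 7 members differed between cultures. The counts were 1568 genes with DESeq2, 1817 genes and 4 members in the fit over all 10 libraries, 418 genes and 0 members under an added limit of 2 on the absolute log2 fold change, and 406 to 1014 genes and 0 to 1 members with 1 library left out. With no replicate block (line left out), edgeR called 0 genes and 0 members, with 2207 genes and 7 members at an unadjusted p under 0.05. Pkp3 ranged from -0.18 (-0.176) to 0.07 (0.0676), turning positive without gel 3 or gel 5 (0.0665); the other members kept their sign in all 11 settings.

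Between the lines, 1910 genes and 1 member differed. The counts were 945 genes with DESeq2, 1065 in the fit over all 10 libraries, 2917 genes and 3 members without a filter, and 401 to 526 genes and 0 members with 1 library left out. No member was called with RLE scaling, a filter of 1 CPM, DESeq2 or all 10 libraries (0 in each). Without gel 2 or gel 3, Epcam turned to 0.06 (0.0606 and 0.0585), Cldn1 to 0.50 (0.499 and 0.497) and Cldn3 to 0.03 (0.0268 and 0.0247), against lowest values of -0.16 (-0.155), -0.89 (-0.887) and -0.43 (-0.434).

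In NFs, 2047 of 7325 genes also passed the limit of 2. Leaving out 1 library gave 5409 to 8312 genes and 6 to 8 members. Leaving out a library of NFs alone leaves the change of the other subset only. Cldn1 turned to 0.50 without the CD26- library alone and to 0.03 without the CD26+ library of gel 4, with a lowest value of -0.79 (-0.790). With the filter by subset and culture, the count was 7 members and took in Cldn7. Epcam, Cldn4 and Cldn7 had no reads in NFs alone and enter such counts only through the co-cultured libraries. The member counts in NFs are therefore descriptions.

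Between the subsets, 975 genes and 1 member differed. The counts were 603 genes without a filter, 0 members with DESeq2, 22 to 950 genes and 0 to 1 members with 1 library left out, and 2407 genes and 4 members with the gel as a replicate block. Dsp turned to -0.01 (-0.0122) without the CD26+ library of gel 4 and reached 0.66 (0.664) without that of gel 5.

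The median share over members, 2.82%, was 2.50% to 3.79% with 1 gel left out. With the level in NFs alone subtracted, the share of Cldn1 was -0.37%. The causes of these shifts were not tested, except that leaving out a library leaves fewer samples. Depth limits Dsg2, Cldn7, Ocln and Cldn1 in NFs, with at most 3, 11, 20 and 20 reads in a library.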
